A study of Mus musculus with 24 samples.

Results

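The genes described here are 175 of the 19938 genes measured in T6E cells, chosen by their measured differences: higher where the Notch signal was blocked and lower where it was supplied. A gene was taken when its mean log2 level was at least 0.5 above MigR1-DMSO in DNMAML-DMSO, at least 0.5 below MigR1-GSI in ICN1-GSI, and it had a mean of at least 5 in 1 or more of the 8 groups. The first difference alone was met by 371 genes with that level and the second by 284, so the 175 were 47.2% of the former and 61.6% of the latter. The 110 genes that met the rule turned round, falling with the block and rising with the supply, served as a mirror set. On the log2 scale, 1 unit is a 2-fold difference.

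T6E cells come from a murine T-cell leukaemia and need Notch1 signalling to grow. All groups are this 1 line. The cells were transfected with the empty retroviral vector MigR1, with DNMAML, a dominant negative Mastermind-like protein, with ICN1, the intracellular part of Notch1, or with R1984A, an ICN1 that is defective in dimerization. Each of these was treated for 6 h with DMSO, the solvent, or with 1 uM compound E, a gamma-secretase inhibitor abbreviated GSI. The 4 constructs and 2 treatments made 8 groups of 3 arrays, named here by construct and treatment. Whether the 3 samples of a group were grown apart is not stated in the labels. The p-values therefore rest on the spread between samples that may differ only technically.

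Notch receptors are cut by gamma-secretase when a ligand binds, and the freed intracellular part enters the nucleus. There it joins the DNA-binding protein Rbpj and recruits Mastermind-like, and this complex activates transcription. On DNA with a pair of sites in a head-to-head arrangement, 2 such complexes can contact each other and dimerize. The complex itself is an activator, and lower expression after Notch activation is usually ascribed to repressors that it induces, such as those of the Hes and Hey families, or to competition with other factors. GSI stops the release of the intracellular part, DNMAML occupies the complex without activating, and ICN1 acts without cleavage.

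To check the labels, the level of Notch1 was read first. It was 6.22 ± 0.05 in MigR1-DMSO and 5.66 ± 0.06 in MigR1-GSI, and 7.01 to 7.32 in the 4 groups with ICN1 or R1984A (SD, n = 3). Maml1, the parent gene of the DNMAML construct, did not mark the DNMAML groups: it read 4.52 ± 0.11 in DNMAML-DMSO and 4.55 ± 0.15 in DNMAML-GSI, within the 4.33 to 4.67 of the other groups. Whether the Notch1 and Maml1 probe sets read the transfected fragments was not examined here, so neither gene is a full check of the labels. The T-cell identity was checked with 11 marker genes, of which 9 were measured under 1 symbol, and Cd3e, a subunit of the T-cell receptor complex, lay at 10.2 to 10.6 on all 24 arrays. Cd5 lay at 3.44 to 4.55, near the medians of the arrays (3.90 to 4.18), so not every T-cell marker was high. Within groups, arrays correlated across genes, which are not independent of each other, with r between 0.982 and 0.994. Replicate 3 stood apart for these 175 genes. Their median on that array, minus the mean of their medians on replicates 1 and 2, was -0.40 to -0.13 in 7 groups. In DNMAML-GSI it was 0.07. Over all genes the same difference was 0.09 to 0.20.

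The rule used MigR1-DMSO, MigR1-GSI, DNMAML-DMSO and ICN1-GSI, so every difference that involves one of these groups is described below with no test. The other 4 groups, DNMAML-GSI, ICN1-DMSO, R1984A-DMSO and R1984A-GSI, gave 4 comparisons on arrays that the rule's differences did not use. DNMAML-GSI and ICN1-DMSO nevertheless carry constructs that the rule used. The median change of the 175 genes with GSI was 0.01 in DNMAML cells and -0.02 in ICN1 cells. The direction of a comparison with either group is therefore partly built in by the choice, for the 175 genes and the mirror set alike. The condition on the level did use all 8 groups, and the limma fit shares 1 estimate of the spread per gene among them. In bulk RNA such as this, fewer cells of a kind and less RNA per cell cannot be told apart.

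The 175 genes were highest under DNMAML and lowest under ICN1, which the choice largely fixes. The median difference of DNMAML-DMSO from MigR1-DMSO was 0.74 (range 0.50 to 2.87), and that of ICN1-GSI from MigR1-GSI was -0.78 (range -3.45 to -0.51). The highest of the 8 group means was DNMAML-GSI for 92 genes, DNMAML-DMSO for 82 and R1984A-GSI for 1, the kinase gene Rps6ka5. The lowest was ICN1-GSI for 97, ICN1-DMSO for 71, R1984A-GSI for 4, R1984A-DMSO for 2 and MigR1-DMSO for 1.

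The vector cells lay between these ends. With each gene set against its own mean over the 8 groups, the median was -0.08 in MigR1-DMSO and 0.23 in MigR1-GSI, against 0.66 in DNMAML-DMSO and 0.63 in DNMAML-GSI. It was -0.55 in ICN1-DMSO and -0.58 in ICN1-GSI. R1984A stood at -0.15 in DMSO and -0.20 in GSI.

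**Figure D1:**
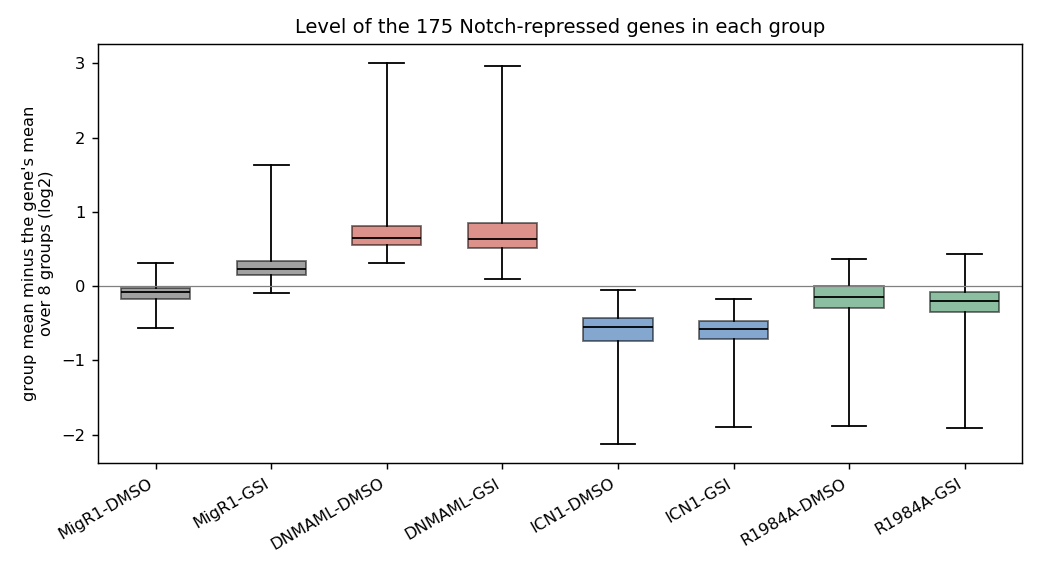
Level of the 175 genes in each of the 8 groups, as the group mean of 3 arrays minus the gene's mean over all groups (log2, vertical axis); boxes span the quartiles, the line is the median and whiskers reach the lowest and highest gene. The boxes of DNMAML lie above 0 and those of ICN1 below it, which the choice of genes largely fixes, and the medians of R1984A are -0.15 and -0.20.

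The difference between GSI and DMSO was read within each construct. From MigR1-DMSO to MigR1-GSI the median change was 0.34 and 174 of 175 genes had a difference above 0, although both groups served in the rule, which bears on this count. In 73 genes the 3 GSI arrays of MigR1 all lay above the 3 DMSO arrays, which held for 4.5% of all genes. In the other constructs the GSI arrays all lay above in 2 to 4 of the 175 genes and all below in 4 to 8, against 3.71% to 4.08% and 2.85% to 3.46% of all genes. The median change with GSI was 0.01 in DNMAML cells and -0.02 in ICN1 cells. DNMAML-GSI exceeded MigR1-GSI in 171 genes, with a median of 0.40. These values are descriptions, since MigR1-DMSO, MigR1-GSI, DNMAML-DMSO and ICN1-GSI served in the rule.

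Ccr8 had the widest range of group means among the 175 genes, 5.13, followed by Cpa3 with 4.20. Ccr8, a chemokine receptor of activated and regulatory T cells, read 6.58, 6.08 and 6.07 in MigR1-DMSO and 7.91, 7.79 and 7.54 in MigR1-GSI. Its arrays read 8.94, 9.17 and 9.24 in DNMAML-DMSO and 8.93, 9.10 and 9.21 in DNMAML-GSI. They read 4.27, 3.94 and 3.75 in ICN1-DMSO, 4.33, 4.55 and 4.02 in ICN1-GSI, 4.68, 4.75 and 3.26 in R1984A-DMSO, and 5.05, 4.73 and 2.86 in R1984A-GSI. The groups with DNMAML, the 2 vector groups and the groups with an intracellular Notch1 did not overlap with each other, while ICN1 and R1984A overlapped. The lowest group mean of Ccr8, 3.99, lies among the medians of the arrays, which makes its fold uncertain.

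The first tested comparison set R1984A-GSI, with an intracellular Notch1 defective in dimerization, against DNMAML-GSI. It cannot separate a fall with R1984A from a rise with DNMAML. Below, a gene that fell is one lower than in DNMAML-GSI. Against the vector, which was not tested, R1984A-GSI minus MigR1-GSI had a median of -0.42, with 166 genes below 0 and 9 above. R1984A-DMSO minus MigR1-DMSO had a median of -0.05, with 100 genes below 0 and 75 above. DNMAML served in the rule on other arrays, so a lower level in R1984A-GSI is partly built in by the choice. Of the 175 genes, 174 lay lower in R1984A-GSI, with a median difference of -0.82, against 0.00 over all genes. limma called 125 lower and 0 higher at a Benjamini-Hochberg adjusted p under 0.05 over all 19938 genes, where 1.63% of all genes were called lower and 1.59% higher. At an unadjusted p under 0.05, 165 were lower and 0 higher, against 5.53% and 5.25% of all genes. In 162 genes the 3 R1984A-GSI arrays all lay below the 3 DNMAML-GSI arrays, which held for 7.48% of all genes. In the mirror set 64 of 110 were called higher and 1 lower, with a median of 0.73. Leaving out 1 array at a time gave 95 to 126 genes called lower, and 91 of the 125 were called in all 6 such fits.

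**Figure D2:**
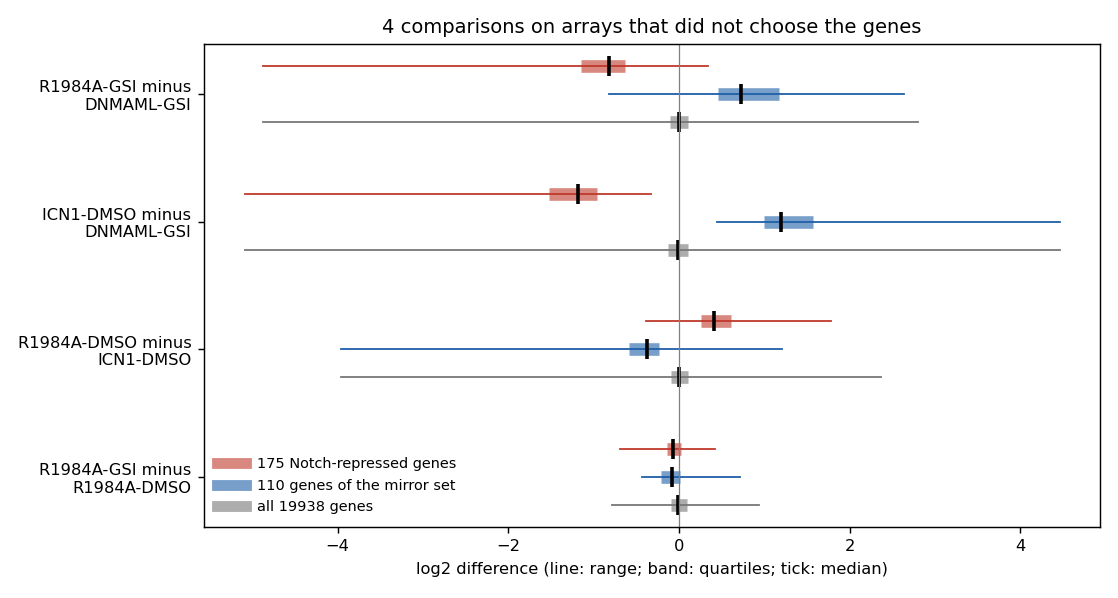
The 4 comparisons among groups that the rule's differences did not use, for the 175 genes, the 110 genes of the mirror set and all 19938 genes; the horizontal axis is the log2 difference, thin lines give the range, bands the quartiles and ticks the median. The 175 genes lie below 0 in the first 2 comparisons (medians -0.82 and -1.18), above 0 in the third (0.41) and near 0 in the fourth (-0.07), and the mirror set lies on the other side of 0 in the first 3. DNMAML and ICN1 served in the rule on other arrays, so the directions in the first 3 are partly built in by the choice.

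Ccr8 fell by 4.87 (SE 0.39, adjusted p = 1.9e-08 by limma), the largest difference of the set in this comparison. Cpa3, the carboxypeptidase of mast cell granules that early T-cell progenitors also transcribe, read 9.15, 9.60 and 9.55 in DNMAML-GSI and 6.38, 6.26 and 5.63 in R1984A-GSI. It fell by 3.34 (SE 0.26, adjusted p = 1.1e-08). Ccr9, the receptor that guides T-cell progenitors to the thymus and T cells to the gut, read 10.1, 10.4 and 10.3 in DNMAML-GSI and 8.41, 7.99 and 7.44 in R1984A-GSI, and fell by 2.34 (SE 0.27, adjusted p = 6.2e-06). The arrays of both genes were far apart between the groups, and replicate 3 was the lowest in R1984A-GSI.

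Aff3, a component of transcription elongation complexes, read 8.39, 8.70 and 8.83 in DNMAML-GSI against 6.24, 6.32 and 5.70 in R1984A-GSI and fell by 2.55 (SE 0.18, adjusted p = 3.4e-09). Bhlhe41, a transcriptional repressor of the clock and of lymphocyte programmes, fell by 2.34 (SE 0.20, adjusted p = 4.7e-08), from 6.43, 6.57 and 6.65 to 4.68, 3.79 and 4.16. Sla, an adaptor that lowers T-cell receptor levels, fell by 2.34 (SE 0.25, adjusted p = 1.1e-06), from 7.28, 7.93 and 7.49 to 5.75, 5.21 and 4.72. No array of the first group overlapped the second for these genes. The lowest group mean of Bhlhe41 was 3.75, within the dim range, so its size is uncertain as well.

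The gene model 1700048O20Rik, which the naming rule leaves out and which is given here for its size, fell by 2.15 (SE 0.41, adjusted p = 0.0021). Among genes with a full name, the next largest falls were those of Kcnmb1, a potassium channel subunit (-1.97), Clec4e, a C-type lectin receptor (-1.82), Lztfl1 (-1.81), Rcbtb2 (-1.80), S100a6, a calcium-binding protein (-1.79), and Tes, a focal adhesion protein (-1.73). These 6 were called by limma, with adjusted p from 2.6e-09 for Lztfl1 to 0.0017 for Tes. Kcnmb1 had a group mean of 3.95 at its lowest and falls under the same limit as Ccr8. Rps6ka5 was the exception to the direction, with 5.73, 6.02 and 6.19 in DNMAML-GSI and 6.49, 6.44 and 6.04 in R1984A-GSI, a difference of 0.34 (SE 0.21, adjusted p = 0.66 by limma).

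**Figure D3:**
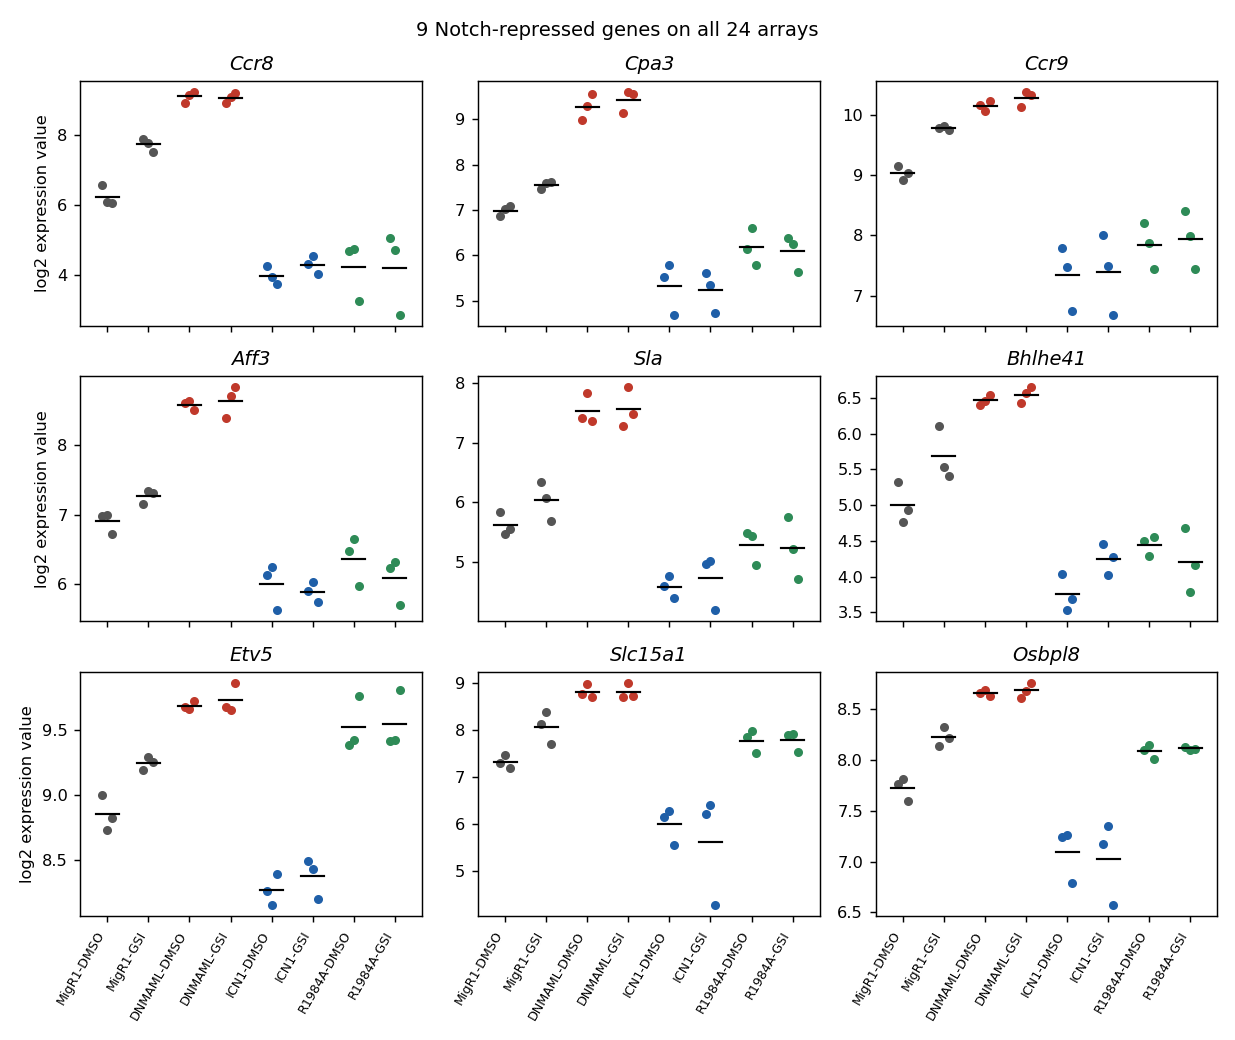
Log2 expression level (vertical axes) of 9 of the genes on all 24 arrays, with 1 point per array and a bar at the mean of 3; colours mark the construct. Ccr8, Cpa3, Ccr9, Aff3, Sla and Bhlhe41 are low with both ICN1 and R1984A. Etv5, Slc15a1 and Osbpl8 are lower with ICN1 than with R1984A, which lies at 9.38 to 9.80 for Etv5. Sla and Bhlhe41 each lay 0.70 higher in R1984A-DMSO than in ICN1-DMSO as well, and were called only with the replicate number as a block.

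The second comparison set ICN1-DMSO against the same DNMAML-GSI arrays, so it is not independent of the first. Both of its constructs served in the rule on other arrays, so its direction is largely built in by the choice. It also differs in treatment, with DMSO in one group and GSI in the other. All 175 genes lay lower in ICN1-DMSO, with a median of -1.18, and limma called 167 lower and 0 higher, against 3.49% and 3.66% of all genes. In 171 genes the 3 ICN1-DMSO arrays all lay below the 3 DNMAML-GSI arrays, against 11.3% of all genes. In the mirror set 106 of 110 were called higher. The 8 genes not called were AI506816, Cenpn, Plekho2, Smarcd2, Mx2, Mif4gd, Rps6ka5 and Rab5b, named because they are the exceptions. Cpa3 read 5.52, 5.79 and 4.69 in ICN1-DMSO and lay 4.10 below DNMAML-GSI (SE 0.26, adjusted p = 2.5e-10).

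The third comparison set R1984A-DMSO, with the construct defective in dimerization, against ICN1-DMSO. Notch1 read 7.01 in R1984A-DMSO and 7.28 in ICN1-DMSO, a difference of -0.27 (SE 0.13, adjusted p = 0.68 by limma). The part of the amount of construct in this comparison was not tested. The rule chose genes that were low with ICN1 under GSI, and for the mirror set genes that were high. A level above ICN1 in another construct, or below it for the mirror set, is thus partly built in by the choice. The 175 genes lay higher with R1984A in 168 cases, by a median of 0.41, and limma called 29 higher and 0 lower, against 0.702% and 0.261% of all genes. At an unadjusted p under 0.05, 98 were higher and 1, Npnt, was lower, against 4.23% and 2.84% of all genes. Same-numbered samples of these 2 groups deviated together, and with the replicate number as a block 64 genes were called higher and 0 lower, where 1.62% of all genes were called higher and 0.672% lower. Genes added by the block include Tes (1.17 higher, SE 0.15), Bcl2 (0.41, SE 0.09) and Bhlhe41 (0.70, SE 0.15). In the mirror set 18 of 110 were called lower and 2 higher, with a median of -0.38. In 97 of the 175 genes the 3 R1984A-DMSO arrays all lay above the 3 ICN1-DMSO arrays, against 6.86% of all genes.

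The count depended on single arrays: 6 genes were called without ICN1-DMSO replicate 3, 8 without R1984A-DMSO replicate 2 and 14 without R1984A-DMSO replicate 1. Without all replicate 3 arrays, a setting added after the data were seen, it was 25. The 5 genes called in each of the 6 fits that leave out 1 array were Dok2, Etv5, Gadd45a, Osbpl8 and Tuba8. Elk3, Kit and Runx3 were called in none of these fits. Of the 29 genes, 22 were also called lower in R1984A-GSI than in DNMAML-GSI, on separate arrays. The 7 that were not are Abhd2, Ccnjl, Etv5, Galc, Lrrc6, Ltb and Slc15a1. Of the genes outside the 29, 103 were called lower in R1984A-GSI than in DNMAML-GSI and 43 were not. Over the whole 175 the share was 71.4%, so 22 of 29 is close to the share of the set.

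Etv5, an ETS transcription factor that acts downstream of ERK signalling, gave the smallest adjusted p among the 175 in this comparison. It read 8.26, 8.15 and 8.39 in ICN1-DMSO and 9.38, 9.42 and 9.76 in R1984A-DMSO, which lies 1.25 higher (SE 0.12, adjusted p = 3.5e-06). R1984A-GSI read 9.41, 9.42 and 9.80, next to 9.67, 9.65 and 9.86 in DNMAML-GSI, a difference of -0.18 (SE 0.12, adjusted p = 0.75). The R1984A-GSI arrays overlapped those of DNMAML-GSI, and the ICN1-DMSO arrays lay below both.

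Slc15a1, a peptide transporter, had the largest difference. Its arrays read 6.15, 6.29 and 5.56 in ICN1-DMSO and 7.84, 7.98 and 7.50 in R1984A-DMSO, which lies 1.78 higher (SE 0.34, adjusted p = 0.0062). Osbpl8, a lipid transfer protein of the endoplasmic reticulum, read 7.24, 7.26 and 6.79 against 8.10, 8.15 and 8.01 and lay 0.99 higher (SE 0.15, adjusted p = 0.00061). Lrrc6, a protein needed to assemble motile cilia, lay 1.32 higher (SE 0.29, adjusted p = 0.021), and Clec4e 1.01 higher (SE 0.19, adjusted p = 0.0049).

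Other genes showed no such gap between the constructs. Lztfl1 read 8.62, 8.61 and 8.35 in ICN1-DMSO and 8.43, 8.69 and 8.58 in R1984A-DMSO, a difference of 0.04 (SE 0.12, adjusted p = 1.0). Ets1 differed by 0.05 (SE 0.14), and Ccr8 by 0.24 with a 95% interval of -0.56 to 1.04, which allows a rise or a fall. Npnt, a matrix protein, read 6.07, 6.04 and 6.05 in ICN1-DMSO and 5.90, 5.94 and 5.14 in R1984A-DMSO, a difference of -0.39 (95% interval -0.73 to -0.06, adjusted p = 0.49). A p above the threshold does not show that the constructs act alike on these genes.

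**Figure D4:**
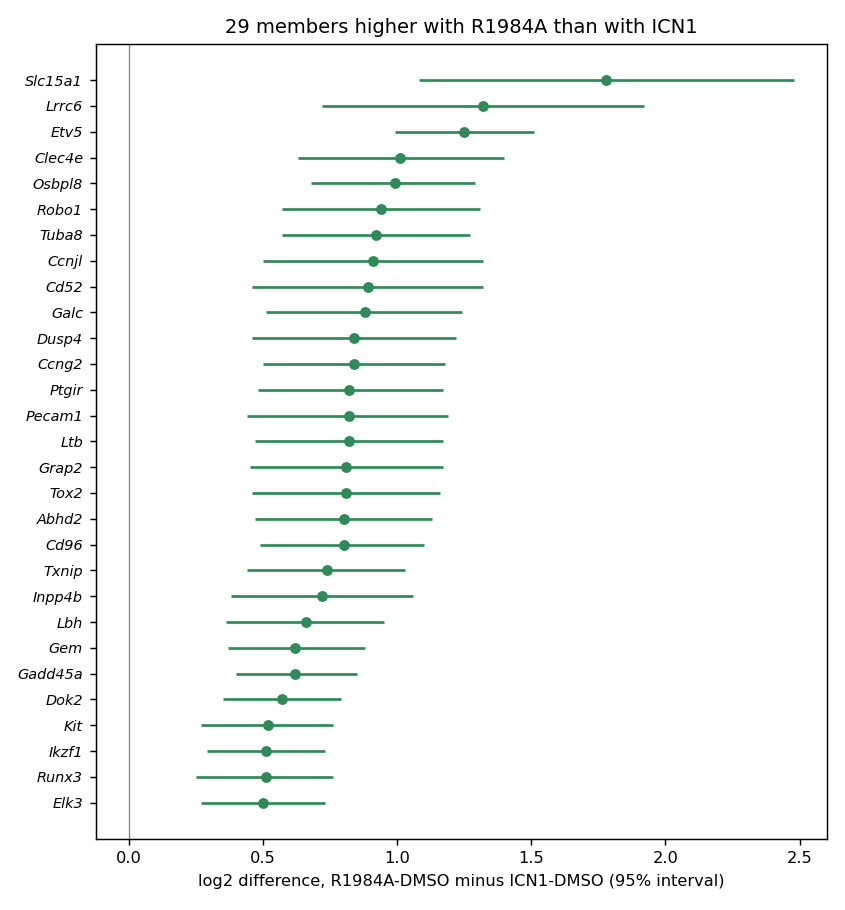
The 29 genes called higher in R1984A-DMSO than in ICN1-DMSO; points give the log2 difference (horizontal axis) and lines its 95% interval from the limma fit. Slc15a1 stands at 1.78, Etv5 at 1.25 with a narrower interval, and Elk3 at 0.50 is the smallest.

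The fourth comparison asked whether GSI moved the genes where the Notch1 fragment needs no cleavage. R1984A-GSI and R1984A-DMSO differed by a median of -0.07, and limma called 0 of the 175 genes and 0.0% of all genes. At an unadjusted p under 0.05, 1 of the 175 was lower and 0 higher, against 1.45% and 1.74% of all genes. That gene was S100a6, which read 5.37, 5.37 and 5.15 in DMSO and 5.09, 4.64 and 4.09 in GSI, a difference of -0.69 (95% interval -1.36 to -0.02).

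Under GSI, the part of the ICN1 effect that R1984A kept was computed as R1984A-GSI minus MigR1-GSI in percent of ICN1-GSI minus MigR1-GSI. The denominator served in the rule, so this is a description. The median was 56.9%, the quartiles 34.5% and 71.0%, with 30 genes under 25%, 32 over 75% and 10 over 100%. The lowest were Rps6ka5 (-91.6%), Inpp4b (-40.2%), Etv5 (-34.1%), Ccnjl (-19.4%), Rab5b (-17.6%) and Robo1 (-16.3%), in which R1984A-GSI lay above MigR1-GSI. The highest were Ldlrad4 (176.7%), Ets1 (125.9%), Ggct (124.9%), Npnt (124.5%), S100a6 (122.5%) and Ptch1 (120.0%). A small denominator makes such a share uncertain: it was -0.505 for Ets1 and -0.511 for Ggct, next to the limit of the rule.

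The genes were then ordered by role, in families put together after their values were seen, so the counts describe and support nothing. Of all 175 genes, 71.4% were called lower in the first comparison, 95.4% lower in the second and 16.6% higher in the third. Over all genes the shares were 1.63%, 3.49% and 0.702%. A family count near the shares of the 175 is no result about that family. Of 8 G-protein-coupled receptors, 5 were called lower in R1984A-GSI than in DNMAML-GSI and 8 lower in ICN1-DMSO, and 1 was called higher in R1984A-DMSO than in ICN1-DMSO. Besides Ccr8 and Ccr9 the family holds Cxcr6, a homing receptor of effector T cells, at 5.84, 6.19 and 5.94 in DNMAML-GSI and 5.27, 4.91 and 4.83 in R1984A-GSI, which fell by 0.99 (SE 0.22, adjusted p = 0.0078). Ednrb, an endothelin receptor, fell by 1.66 (SE 0.20) and Ptgir, the prostacyclin receptor, fell by 1.30 (SE 0.17). Cx3cr1, the fractalkine receptor, differed by -0.44 (adjusted p = 0.19), and Gpr83 and Gpr132 were not called either. Ptgir was the 1 receptor called higher with R1984A than with ICN1, by 0.82 (SE 0.17, adjusted p = 0.0098).

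Among 18 other surface proteins of immune cells, 14 were called lower in the first comparison, 18 in the second and 6 higher in the third. Pdcd1, the gene of the checkpoint receptor PD-1, read 6.34, 6.88 and 6.48 in DNMAML-GSI, 5.01, 5.44 and 5.0 in R1984A-GSI and 4.91, 4.64 and 4.84 in ICN1-DMSO. It fell by 1.42 (SE 0.23, adjusted p = 0.00043) in the first comparison, and it fell by 1.77 in the second. Cd96, a receptor of T and NK cells, fell by 1.16 in the first and fell by 1.97 in the second, and lay 0.80 higher with R1984A than with ICN1 (SE 0.15, adjusted p = 0.0047).

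Kit, the receptor of stem cell factor on early progenitors and mast cells, read 6.61, 6.45 and 6.64 in DNMAML-GSI, 5.63, 5.18 and 5.72 in R1984A-GSI and 5.11, 5.01 and 5.10 in ICN1-DMSO. The 3 groups did not overlap. Kit fell by 1.06 (SE 0.12, adjusted p = 3.6e-06) with R1984A and fell by 1.5 (SE 0.12, adjusted p = 8.6e-09) with ICN1, and R1984A-DMSO lay 0.52 above ICN1-DMSO (SE 0.12, adjusted p = 0.030). That last call was lost in 6 of 6 fits that leave out 1 array. Pecam1, an adhesion molecule, and Cd52, a small glycoprotein of lymphocytes, were called in all 3 comparisons too. Slamf1, Milr1, Epha2 and Tspan32 were called in the second comparison and not in the first.

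Kit and Cpa3 are also mast cell markers. Of 10 mast cell markers measured, only these 2 reached a level of 5 in any group, and 7, among them Fcer1a, Ms4a2, Hdc and Mcpt4, lay below 4.18 in every group mean. The summed level of the 10 ranged over group means from 36.3 in ICN1-DMSO to 42.4 in DNMAML-GSI. Cpa3, at 5.23 to 9.43, and Kit, at 5.07 to 6.61, both chosen by the rule, account for most of that range. Without them the sum of the other 8 lay between 25.8 in R1984A-DMSO and 26.7 in MigR1-DMSO. Myeloid markers, 10 of 10 measured, lay at or below 4.14 on every array, although Clec4e is best known from macrophages. The T-cell markers summed to 63.6 in R1984A-GSI and 67.1 in DNMAML-DMSO, the lowest and highest groups. The part of these differences in the results was not tested.

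Signalling genes next to the T-cell receptor formed a family of 10, of which 9 were called lower with R1984A, 10 lower with ICN1 and 2 higher in R1984A-DMSO than in ICN1-DMSO. Grap2, an adaptor that links the receptor to Lcp2, fell by 1.43 (SE 0.17, adjusted p = 9.7e-06) in the first comparison and fell by 2.32 (SE 0.17, adjusted p = 3.0e-09) in the second. Prkcq, the kinase PKC-theta, fell by 0.60 in the first and fell by 0.94 in the second. Dok2, an adaptor that restrains signalling, read 5.72, 5.72 and 5.78 in ICN1-DMSO and 6.34, 6.25 and 6.34 in R1984A-DMSO, a narrow gap of 0.57 (SE 0.11, adjusted p = 0.0054). Tespa1 lay 0.32 lower in R1984A-GSI than in DNMAML-GSI (adjusted p = 0.54) and fell by 1.19 with ICN1. On a wider list of T-cell receptor complex and signalling genes, 52 were measured, and 10 were called lower and 1 higher in the first comparison, with a median of -0.12. The list holds 6 of the 175 genes: Sla, Sla2, Grap2, Prkcq, Skap1 and Tespa1.

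Transcription regulators numbered 21, with 18, 21 and 5 called in the 3 comparisons. Gata3, a master factor of early T cells and helper cells, read 8.88, 9.03 and 9.20 in DNMAML-GSI, 8.37, 8.12 and 8.19 in R1984A-GSI and 7.89, 8.04 and 8.05 in ICN1-DMSO. It fell by 0.81 in the first comparison (SE 0.11, adjusted p = 3.7e-05) and fell by 1.05 in the second (SE 0.11, adjusted p = 4.0e-07). Gata3 and Lztfl1 stand on a list of genes known to be raised by Notch elsewhere. Here both were lower in R1984A-GSI and in ICN1-DMSO than in DNMAML-GSI. On that list 25 genes were measured, and 2 were called lower, these 2, and 9 higher in the first comparison.

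Ikzf1, the Ikaros gene and a known antagonist of Notch targets in this leukaemia, read 9.78 ± 0.21 in DNMAML-GSI (SD, n = 3) and 8.58, 8.65 and 8.57 in ICN1-DMSO, and fell by 1.18 (SE 0.11, adjusted p = 7.2e-08). In R1984A-DMSO it read 9.10, 9.20 and 9.05, which is 0.51 above ICN1-DMSO (SE 0.11, adjusted p = 0.015). Runx3, a factor of cytotoxic T cells, showed the same step of 0.51 (SE 0.12, adjusted p = 0.043). With 1 array left out, the call of Runx3 was lost in 6 of 6 fits and that of Ikzf1 in 4. Tead1, a partner of the Hippo pathway, fell by 1.71 in the first and fell by 2.32 in the second comparison. Sox13, a factor of gamma-delta T cells, fell by 1.27 and fell by 1.62. Etv3 (-0.52, adjusted p = 0.24) and Nr3c1, the glucocorticoid receptor (-0.71, adjusted p = 0.089), were not called in the first comparison, nor was Etv5. A list of lineage transcription factors had 59 measured genes, of which 9 were called lower and 4 higher there. This list holds 6 genes chosen by the rule, so its count of lower calls is partly built in.

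Of 5 survival and growth arrest genes, 5 were called lower in both of the first 2 comparisons and 3 higher in the third. Bcl2, the anti-apoptotic founder of its family, read 9.01, 9.03 and 8.92 in DNMAML-GSI, 8.13, 7.99 and 7.84 in R1984A-GSI and 7.62, 7.64 and 7.51 in ICN1-DMSO. It fell by 1.00 (SE 0.11, adjusted p = 2.2e-06) with R1984A and fell by 1.39 with ICN1 (SE 0.11, adjusted p = 6.3e-09). Gadd45a, a stress-induced gene, Ccng2, a cyclin of resting cells, and Txnip, an inhibitor of thioredoxin and glucose uptake, lay 0.62, 0.84 and 0.74 higher with R1984A than with ICN1, all called. Of 14 measured genes of the Bcl2 family, only Bcl2 and Bcl2l1, both among the 175, were called in the first comparison. No G2/M gene of 26 measured is among the 175, and 1 of them was called lower in the first comparison, where the median of the 26 was -0.23. In the second comparison 8 of the 26 were called lower and 0 higher, with a median of -0.33, against 3.49% of all genes called lower.

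Feedback regulators of ERK and enzymes of membrane lipids were represented by pairs. Dusp4 and Dusp6, phosphatases of ERK, fell by 1.13 (SE 0.18) and fell by 0.81 (SE 0.19) with R1984A. Dusp4 lay 0.84 higher in R1984A-DMSO than in ICN1-DMSO (SE 0.18, adjusted p = 0.021) while Dusp6 lay 0.38 higher (adjusted p = 0.73). Inpp4b, a phosphoinositide phosphatase, read 5.94, 6.09 and 5.35 in ICN1-DMSO and 6.46, 6.69 and 6.38 in R1984A-DMSO, 0.72 higher (SE 0.16, adjusted p = 0.028). Pip4k2a, a kinase of the same lipids, differed by 0.24 (adjusted p = 0.94).

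Sialyl and glycosyl transferases, St8sia4, St3gal1, St6gal1 and Galnt3, build glycans of the cell surface. All 4 were called lower in the first 2 comparisons and 0 in the third, with a median of -1.44 against DNMAML-GSI for R1984A-GSI. St3gal1 fell by 1.60 (SE 0.14, adjusted p = 7.0e-08). Of 11 cytoskeletal genes and regulators of small G-proteins, 10 were called lower in the first comparison and all 11 in the second, and Tuba8, a tubulin, lay 0.92 higher in R1984A-DMSO than in ICN1-DMSO (SE 0.17, adjusted p = 0.0046). Rac2, a small G-protein of blood cells, was the exception in the first, at -0.56 (adjusted p = 0.22).

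Of 9 vesicle and lysosome genes, 6 and 8 were called lower in the first 2 comparisons, and Galc, a lysosomal galactosidase of sphingolipids, was the 1 called higher in the third, by 0.88 (SE 0.18, adjusted p = 0.011). Atp6v0a1, a subunit of the proton pump of acidic vesicles, fell by 1.48 (SE 0.12, adjusted p = 3.6e-08). Of 10 transporters and channels 5 and 10 were called lower, and of 6 secreted factors 3 and 6. The remaining 69 genes were put in no family, and 42, 62 and 6 of them were called in the 3 comparisons.

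Other lists were counted in the first comparison, where 1.63% of all genes were called lower. They hold 2, 3, 5, 3, 3, 2 and 1 genes chosen by the rule, in the order given here. Lower calls of these chosen genes are partly built in, so the counts do not test the lists themselves. Of 30 measured genes linked to quiescence and FoxO factors, 5 were called lower and 1 higher. For 26 costimulatory and inhibitory receptors it was 3 and 3, for 46 migration and adhesion receptors 5 and 1, and for 36 cytokine receptors 5 and 2. Of 40 lysosome and vacuolar pump genes, 3 were called lower and 1 higher, of 35 MHC and interferon genes 0 and 1, and of 14 bHLH and Id repressors 1, Bhlhe41, and 2.

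The core of the Notch pathway itself holds none of the 175 genes. On a list of 50 pathway components, 47 were measured, with 0 called lower and 4 higher in the first comparison and 0 called in the third. Among genes that Notch raises, Nrarp lay 1.95 higher in R1984A-GSI than in DNMAML-GSI (SE 0.11, adjusted p = 1.0e-10), and Dtx1 1.88 higher (SE 0.21). Nrarp stood at 4.17 in DNMAML-GSI, in the dim range that ends at 4.18, which leaves its fold uncertain, and Hes1 stood just above that range at 4.29. Hes1, a bHLH repressor, lay 1.15 higher in ICN1-DMSO than in DNMAML-GSI (SE 0.14, adjusted p = 4.3e-06) and 0.43 higher in R1984A-GSI (SE 0.14, adjusted p = 0.12). Myc lay 2.22 higher in ICN1-DMSO (SE 0.21), and R1984A-DMSO lay 0.92 below ICN1-DMSO (SE 0.21, adjusted p = 0.027).

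The genes differed in how far they ranged. The 8 group means spanned 2 units or more in 24 genes and less than 1 unit in 19. In 10 genes the lowest group mean was under 4.18, the highest array median, so the size of their differences is uncertain. Near the threshold, Etv3 (0.501) and Elfn2 (0.502) were just inside on the DNMAML difference and Pdp1 (0.499) and Rexo5 (0.497) just outside. Ets1 (-0.505) and Dock8 (-0.507) were just inside on the ICN1 difference and Bcl9l (-0.492) and Wfs1 (-0.491) just outside.

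Over the 12 arrays that the rule's differences did not use, the genes tracked their common mean with a median Pearson r of 0.929, above 0.8 in 160 genes and below 0.5 in Rps6ka5 (0.37). These arrays fall into groups by construct, DNMAML and ICN1 served in the rule, and each gene is part of that mean. A high r is therefore largely built in, and such values only describe the shared pattern. Outside the 175, the genes most like their mean on these 12 arrays were Fli1 (0.98), an ETS factor of blood cells, Cpt1a (0.98), the gate of fatty acid oxidation, C1qtnf1, Ypel5 and Itm2b. Fli1 missed the rule on the ICN1 difference (-0.36) and Cpt1a on the DNMAML difference (0.48). The most opposed were Nmd3 (-0.977) and Dusp1 (-0.969).

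Several of the genes are neighbours on a chromosome. Among measured genes, 7 pairs were adjacent, including Cx3cr1 and Ccr8, Lztfl1 and Ccr9, Slc15a1 and Dock9, and Pecam1 and Milr1. Another 5 pairs had 1 gene between them, including S100a4 and S100a6, and Ccr9 and Cxcr6. In 1 of the adjacent pairs, Slc15a1 lay 1.78 higher in R1984A-DMSO than in ICN1-DMSO and Dock9 0.51 (SE 0.19, adjusted p = 0.40).

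Promoters were read for the Rbpj motif of Notch itself and for motifs of factors with known roles in T cells, in RefSeq sequence of build GRCm38.p6 covering 250 bases before to 50 after the start. They were matched by gene ID for 144 of the 175 genes, 63 of the mirror set and 15562 measured genes in all. The Rbpj motif TGGGAA, on either strand, stood in 15.3% of the 144, in 41.3% of the mirror set and in 24% of all. The Hes class C site CACGCG stood in 16.7% of the 144, 25.4% of the mirror set and 13.3% of all, and the N-box CACNAG in 39.6%, 44.4% and 41.7%. The E-box CAGCTG, read by E-proteins, stood in 26.4%, 19.0% and 15.8%. The shares were 20.8%, 15.9% and 19.2% for the E-box CAGGTG, 7.6%, 14.3% and 8.4% for the E-box CACGTG of Myc, and 17.4%, 9.5% and 14.2% for the Runx motif TGTGGT. For the FoxO motif TGTTTAC they were 2.8%, 0.0% and 3.0%, and for the Gata motif AGATAA 6.2%, 4.8% and 9.5%. A match is a string of letters, not a shown site, and none of these shares was tested.

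The 250 bases before the start are shown for 7 genes: the 4 chemokine receptor, protease and repressor genes with large falls, Kit with its several N-box matches, and the neighbours S100a4 and S100a6, which both hold an Rbpj match. Capitals mark matches to the Rbpj, class C and N-box motifs on either strand, and positions count back from the start. Ccr8 lies at chr9:120091883-120092132 on the plus strand, Cpa3 at chr3:20242182-20242431 on the minus strand, Ccr9 at chr9:123766961-123767210 on the plus strand and Bhlhe41 at chr6:145865421-145865670 on the minus strand. Kit lies at chr5:75574737-75574986 on the plus strand, S100a4 at chr3:90603520-90603769 on the plus strand and S100a6 at chr3:90612644-90612893 on the plus strand.
Ccr8: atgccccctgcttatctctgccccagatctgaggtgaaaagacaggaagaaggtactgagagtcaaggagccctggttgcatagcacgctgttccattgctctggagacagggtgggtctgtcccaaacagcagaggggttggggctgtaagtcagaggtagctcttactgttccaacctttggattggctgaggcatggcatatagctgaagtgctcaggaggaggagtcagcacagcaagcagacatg
Cpa3: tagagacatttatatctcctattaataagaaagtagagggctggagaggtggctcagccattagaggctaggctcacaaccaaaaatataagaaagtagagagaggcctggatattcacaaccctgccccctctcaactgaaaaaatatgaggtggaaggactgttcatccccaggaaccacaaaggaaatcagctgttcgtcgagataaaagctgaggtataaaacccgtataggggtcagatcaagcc
Ccr9: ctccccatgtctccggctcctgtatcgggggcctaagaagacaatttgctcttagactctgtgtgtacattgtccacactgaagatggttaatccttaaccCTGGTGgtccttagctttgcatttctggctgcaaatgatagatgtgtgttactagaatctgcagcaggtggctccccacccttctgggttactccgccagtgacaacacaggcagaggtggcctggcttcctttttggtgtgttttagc
Bhlhe41: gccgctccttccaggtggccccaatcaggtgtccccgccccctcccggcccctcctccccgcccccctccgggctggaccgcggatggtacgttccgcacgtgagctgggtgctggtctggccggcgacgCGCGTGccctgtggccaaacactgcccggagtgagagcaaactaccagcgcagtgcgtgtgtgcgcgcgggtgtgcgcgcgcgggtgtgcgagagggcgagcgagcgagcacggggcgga
Kit: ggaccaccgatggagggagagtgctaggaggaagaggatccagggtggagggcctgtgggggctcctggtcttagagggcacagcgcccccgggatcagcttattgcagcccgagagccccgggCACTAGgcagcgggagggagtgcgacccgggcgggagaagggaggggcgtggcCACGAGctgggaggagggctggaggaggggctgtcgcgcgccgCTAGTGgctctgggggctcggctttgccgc
S100a4: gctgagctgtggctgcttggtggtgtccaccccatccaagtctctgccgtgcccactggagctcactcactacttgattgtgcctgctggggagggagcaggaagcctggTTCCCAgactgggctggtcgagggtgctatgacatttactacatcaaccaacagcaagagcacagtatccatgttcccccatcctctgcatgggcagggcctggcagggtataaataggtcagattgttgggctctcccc
S100a6: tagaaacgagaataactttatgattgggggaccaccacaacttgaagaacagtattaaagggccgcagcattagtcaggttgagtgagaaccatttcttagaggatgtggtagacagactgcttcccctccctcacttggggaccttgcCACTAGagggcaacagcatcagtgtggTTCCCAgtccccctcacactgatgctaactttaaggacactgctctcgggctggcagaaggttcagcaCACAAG

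Ccr8 and Cpa3, with the largest falls, hold none of the 3 capitalised motifs in this window. Ccr9 holds an N-box match at -149 and Bhlhe41 a class C match at -120. Kit holds N-box matches at -126, -73 and -30. S100a4 holds an Rbpj match at -140 and S100a6 one at -74, although both genes were lower in R1984A-GSI than in DNMAML-GSI. S100a4 read 10.21, 10.14 and 10.01 in DNMAML-GSI and 8.82, 8.59 and 8.34 in R1984A-GSI, and fell by 1.53 (SE 0.16, adjusted p = 9.7e-07 by limma). Whether any of these letters is bound was not measured here.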

How the data were processed

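RNA from 24 samples was measured on the Affymetrix Mouse Gene 1.0 ST array. The deposited values are log2 expression levels per probe set, made by the authors with the R packages oligo and limma, per the submitters' processing notes. Background correction and normalization were not stated there or in the labels. The log2 scale was read from the values (1.28 to 13.47), which were used as deposited.

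Of 35556 probe sets, 21789 had 1 gene symbol in the platform annotation, 1621 had several and 12146 had none in the table used here. For 999 genes with several probe sets, the one with the highest mean was kept, which left 19938 genes. Group means were fitted with limma 3.58.1 in R 4.3.3 over all 24 arrays with 16 residual and 6.56 prior degrees of freedom. Genes were called at a two-sided Benjamini-Hochberg adjusted p under 0.05 over all genes, and the script was tested on simulated data. All p-values are limma's. Precision is limited by the number of arrays.

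The genes, lists and named genes were chosen with earlier results of these data known. Named genes follow a rule: up to 12 called genes with the largest change per comparison and no overlap of arrays, those at the thresholds, those on a list, and up to 8 with the lowest and highest share kept by R1984A; clone and Rik names are left out. Genes named in the families were chosen after their values were seen.

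The replicate numbers in the titles pair R1984A-DMSO with ICN1-DMSO, since same-numbered samples deviated together with correlations of 0.248, 0.194 and 0.425. The other 3 comparisons each had a pair under 0.1. Alternatives were the replicate block, fewer samples in the fit, every probe set, a filter on dim genes, quantile normalization, array weights, an intensity trend and single arrays left out.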

Additional observations from a re-analysis of the deposited data

Results flagged for a closer look

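For 6 of the 175 genes the response to GSI ran one way in every array of the vector cells and the other way in every array of another construct, with the GSI and DMSO arrays not overlapping in either construct. The difference was not tested, and the vector arrays served in the choice of the genes. Of the 73 genes with all GSI arrays above in MigR1, 4 had all GSI arrays below in DNMAML cells (5.48%), 0 in ICN1 cells and 2 in R1984A cells (2.74%). Over all genes, 897 had all GSI arrays above in MigR1, and 4.24%, 2.9% and 2.9% of them had all GSI arrays below in DNMAML, ICN1 and R1984A cells, so the shares are close to the background. In MigR1 and DNMAML cells, GSI minus DMSO was 0.32 and -0.10 for Ano6, a lipid scramblase, 0.42 and -0.30 for Fam102a, 0.21 and -0.27 for Galc, and 0.47 and -0.22 for Skil, a repressor of TGF-beta signalling. In MigR1 and R1984A cells it was 0.27 and -0.13 for Pdlim5, and 0.47 and -0.12 for Txnip.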

How the results depend on the processing

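The direction of the median and the absence of calls in the opposite direction held in the first 3 comparisons under each alternative run. With R1984A-DMSO against ICN1-DMSO, the number of genes called higher moved from 29 to 64 with the replicate block, to 44 with the filter on dim genes, which tests fewer genes, and to 59 with array weights; for the block and the weights the cause was not tested. It fell to 22, of which 17 are among the 29, when only the 2 groups compared were fitted, a fit with fewer samples, and quantile normalization gave 35, of which 26 are among the 29. Leaving out 1 array at a time gave 6 to 26 genes called higher and medians of 0.36 to 0.53 there. It gave 95 to 126 called lower and medians of -0.90 to -0.76 for R1984A-GSI against DNMAML-GSI, 151 to 163 and -1.23 to -1.11 for ICN1-DMSO against DNMAML-GSI, and 0 calls and -0.18 to 0.01 for R1984A-GSI against R1984A-DMSO, the comparison whose median changed sign.

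Each of the 3 other comparisons had a same-numbered pair under 0.1 and was not taken as paired, although some numbers did match. In ICN1-DMSO against DNMAML-GSI the same-numbered correlations were 0.242, 0.093 and 0.369, against at most 0.087 for other numbers. The own number matched best for 3 numbers there, for 2 in the first comparison and for 1 in the fourth. The replicate block kept all 125 and all 167 calls. With thresholds of 0.4 the rule chose 281 genes, and with 0.6 it chose 117. Any probe set gave 179, quantile normalization 163, and leaving out 1 array 148 to 219. Without all replicate 3 arrays, an alternative chosen after seeing the data, the rule chose 171 genes, of which 138 are among the 175. Depth limits do not apply to arrays, but levels near the array medians of 3.90 to 4.18 carry little information on size.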
